A study of Mus musculus with 12 samples.

Results

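The kallikreins and the *Prss* and *Tmprss* genes are families of serine peptidases, enzymes that cut proteins with a serine in the active site. They were followed in RNA sequencing of the hippocampus of mice with and without *Dek*, a chromatin protein. Members were all protein-coding genes whose symbol starts with *Klk*, with *Prss* and a digit, or with *Tmprss*, and that had a value above 0 in at least 1 library. The annotation held 83 such symbols, 81 of them had a row among the 26409 listed genes, and 68 rows were above 0 and make up the members (21 *Klk*, 31 *Prss* and 16 *Tmprss*). The other 13 rows were listed at 0 in every library (*Klk4*, *Klk15*, *Klk1b9*, *Klk1b21*, *Klk1b22*, *Prss3*, *Prss21*, *Prss28*, *Prss29*, *Prss32*, *Prss39*, *Prss58* and *Tmprss11c*). Of the 68 members, 38 had a mean of at least 0.1 TPM and were tested (12 *Klk*, 18 *Prss* and 8 *Tmprss*), while 30 were too low. At that limit *Prss42* was just inside with a mean of 0.104 TPM and *Klk1* just outside with 0.0985 TPM.

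The 12 libraries come from 12 mice, with 3 in each of 4 groups: female WT, female cKO, male WT and male cKO. In *Dek* cKO mice exons 3 and 4 of *Dek*, flanked by loxP sites, had been deleted by CMV-Cre, a Cre active in all tissues including the germline. The Cre transgene was then bred out and the deletion kept as a line by mating heterozygotes, so that every cell type of a cKO mouse lacks the exons and no effect can be assigned to 1 cell type. The CMV-Cre mice used for this were on the C57Bl/6 background. All mice were 6 to 12 months old and had been through behavioral testing, WT mice included. Library names start with C57 in the 3 female WT libraries and with CMV in the other 9, so in females the name and the genotype cannot be told apart. Replicates are separate animals, and p-values measure the spread between them.

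Serine peptidases of these families are mostly made as inactive precursors and act outside the cell or at its surface. Many kallikreins are known from skin and glands, and the mouse *Klk1b* genes are a rodent-specific expansion of the glandular kallikrein *Klk1*. In the hippocampus the best known members are neuropsin (*Klk8*), which is released with neuronal activity and cuts adhesion molecules at synapses, neurosin (*Klk6*) of oligodendrocytes and neurons, and neurotrypsin (*Prss12*), which cuts agrin at synapses. *Tmprss* genes encode type II transmembrane peptidases, and many *Prss* genes are known from testis, gut, airway or mast cells.

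The start regions of these 3 brain peptidases are shown for the best known hippocampal members. Each window runs from 250 bases before to 50 bases after the start that RefSeq gives on GRCm38.p6, on the plus strand at chr3:123446663-123446962 for *Prss12*, at chr7:43797327-43797626 for *Klk8* and at chr7:43824294-43824593 for *Klk6*, the first of 2 starts listed for that gene. Capitals mark the GC box GGGCGG or its reverse CCGCCC.
Prss12: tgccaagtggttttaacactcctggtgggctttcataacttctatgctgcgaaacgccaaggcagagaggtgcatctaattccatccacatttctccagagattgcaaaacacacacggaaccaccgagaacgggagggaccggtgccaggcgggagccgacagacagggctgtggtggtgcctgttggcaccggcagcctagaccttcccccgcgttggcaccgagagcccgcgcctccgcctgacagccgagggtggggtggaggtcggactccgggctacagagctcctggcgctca
Klk8: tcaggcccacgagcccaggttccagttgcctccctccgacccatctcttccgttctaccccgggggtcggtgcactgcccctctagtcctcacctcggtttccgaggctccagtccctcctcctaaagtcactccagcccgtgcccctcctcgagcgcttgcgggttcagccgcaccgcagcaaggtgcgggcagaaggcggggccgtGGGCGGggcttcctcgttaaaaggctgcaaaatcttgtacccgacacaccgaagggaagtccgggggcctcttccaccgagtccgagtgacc
Klk6: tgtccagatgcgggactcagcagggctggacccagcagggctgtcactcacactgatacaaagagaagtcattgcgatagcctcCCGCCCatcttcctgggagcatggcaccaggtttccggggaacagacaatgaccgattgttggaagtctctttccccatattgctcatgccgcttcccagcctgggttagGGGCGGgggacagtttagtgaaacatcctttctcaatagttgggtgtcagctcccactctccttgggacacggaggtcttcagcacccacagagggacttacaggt
The *Klk8* window holds 23 CpG dinucleotides and 1 GC box, the *Prss12* window 19 CpG and no GC box, and the *Klk6* window 8 CpG and 2 GC boxes. The median window of all 27025 genes has 7 CpG, and the median over the 53 members with a window was 3. It was 6.5 in the 10 of them with a mean of at least 1 TPM and 3 in the 43 below 1 TPM. A GC box on either strand was found in 10 of the 53 members (18.9%) and in 35.9% of all genes. Of these 10 members 9 were among the 29 tested members with a window. The TATA box TATAAA was found in 2 of 53 members and in 14.2% of all genes. The cyclic AMP motif TGACGTCA was in 0 of 53 members and 1.88% of all genes, and the STAT motif TTCNNNGAA in 4 of 53 and 8.47%. These matches are letters in a window and were not tested as binding sites.

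*Dek* itself was at 48.3 ± 2.58 TPM in WT and 7.23 ± 1.32 TPM in cKO libraries (SD, n = 6 each), so the genotype labels held in all 12. The sex labels did not hold in 2 cKO libraries: female cKO 3 had 72.7 TPM of the Y-linked *Eif2s3y* and male cKO 1 had 0.111 TPM, where the other female libraries had at most 0.993 TPM and the other male libraries at least 69.0 TPM. Labelled groups are used below, and named results within a sex, or between the sexes, are also given without these 2 libraries where their values moved by over 1.5 times or left an unadjusted p under 0.05. Between 18104 and 18719 listed genes were above 0 in a library, and 10 hippocampal neuron markers summed to between 2621 and 3160 TPM in every library. In cKO against WT of both sexes none of the 10 cell type marker lists held a called gene, beside 0.148% of all genes. At such a share this says little about tissue make-up. At an unadjusted p under 0.05, 2 of 8 microglia markers were higher and 1 of 10 hippocampal neuron markers was lower. Of the 8 blood and mast cell markers 1 was higher and 1 lower. The shares over all genes were 4.84% higher and 1.8% lower. Male cKO 3 stood apart, with the highest value of all libraries for 19.5% of the 18197 genes tested and 1846 TPM of summed astrocyte markers against 807 to 1084 TPM elsewhere. TPM, a relative abundance of transcripts, is scaled by transcript length and library total, so the read depth behind a value is unknown here.

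The members were low in the hippocampus. Their mean levels summed to 70.6 TPM, and 3 of the 68 held 50.8% of that sum, *Prss12* at 12.8 TPM, *Prss36* at 12.7 TPM and *Klk8* at 10.3 TPM. *Prss12*, the highest, lay above only 69.2% of the listed genes. A further 10 members had a mean of 1 to 10 TPM, 25 lay between 0.1 and 1 TPM, and 30 lay under 0.1 TPM. *Prss* genes held 62.7% of the sum, *Klk* genes 26.7% and *Tmprss* genes 10.7%. A library had between 42 and 52 members above 0, and 28 members were above 0 in every library. The order among the top 3 was not stable between libraries, since *Klk8* spanned 7.04 to 17.96 TPM and *Prss12* 8.997 to 20.3 TPM, while *Prss36* stayed between 10.9 and 14.5 TPM.

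**Figure D1:**
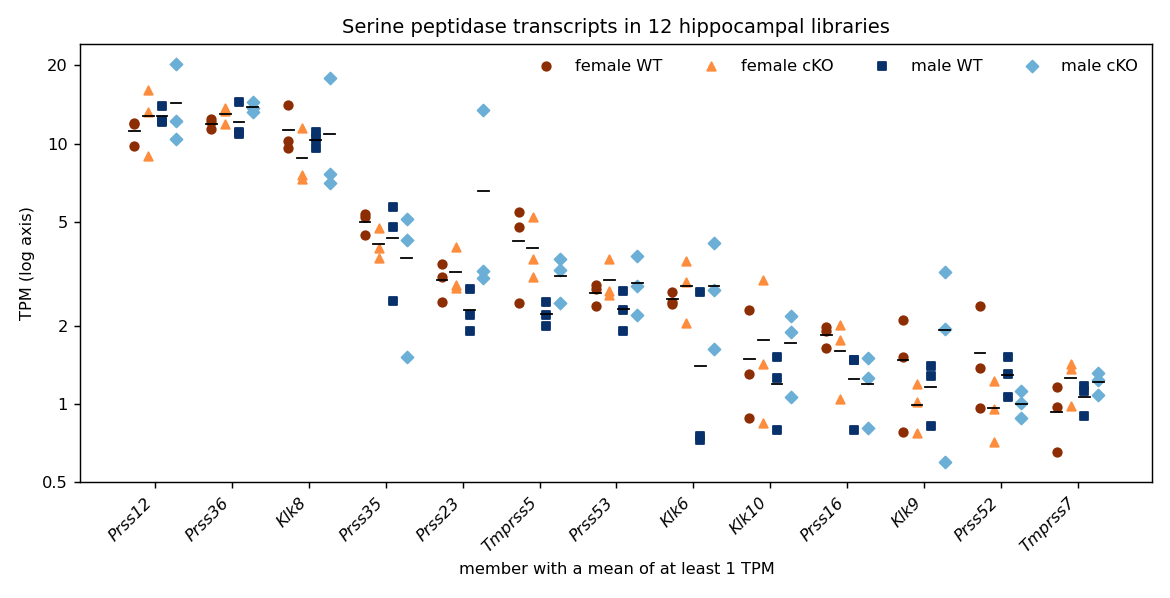
TPM on a log axis for the 13 members with a mean of at least 1 TPM, ordered by mean. Each point is 1 library, colors and shapes mark the 4 groups, and black bars are group means of 3 libraries. In male cKO one library lies far above the other 2 for *Klk8* (17.96 TPM) and *Prss23* (13.5 TPM), and for *Klk6* 2 male WT libraries lie far below the rest.

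Neurotrypsin, *Prss12* (ENSMUSG00000027978, chr3:123446913-123506597 on GRCm38), was at 11.96, 11.97 and 9.792 TPM in female WT and 16.1, 13.2 and 8.997 TPM in female cKO libraries. In males it was at 12.3, 13.9 and 12.1 TPM in WT and 12.2, 10.5 and 20.3 TPM in cKO. The cKO libraries held both the highest and the lowest values, and WT lay inside their range. The log2 fold change of cKO against WT was 0.13 ± 0.17 (SE), and without male cKO 3 it was 0.0015 (limma, unadjusted p = 0.454 and 0.992). Without female cKO 3 it was 0.23.

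Neuropsin, *Klk8* (ENSMUSG00000064023, chr7:43797577-43803826), was at 9.65, 10.2 and 14.1 TPM in female WT and 7.57, 7.32 and 11.5 TPM in female cKO libraries. Male WT libraries were at 11.1, 10.4 and 9.62 TPM and male cKO libraries at 7.67, 7.04 and 17.96 TPM. Thus 4 of 6 cKO libraries lay below every WT library, between 7.04 and 7.67 TPM, while female cKO 3 lay within the WT range and male cKO 3 above it. The log2 fold change was -0.22 with a 95% interval of -0.66 to 0.23 (limma adjusted p = 0.917), and -0.14 without female WT 3. Without male cKO 3 it was -0.41 at an unadjusted p of 0.0112, which did not pass after adjustment (limma adjusted p = 0.520). In bulk tissue, fewer cells of a type and less RNA per cell cannot be told apart, for this and all other members. Male cKO 3 had the highest astrocyte marker sum, and the part of this in its *Klk8* level was not tested.

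Neurosin, *Klk6* (ENSMUSG00000050063, chr7:43824499-43832030), was at 2.43, 2.46 and 2.69 TPM in female WT and 2.05, 2.94 and 3.53 TPM in female cKO libraries. In males WT libraries were at 2.71, 0.753 and 0.730 TPM and cKO libraries at 2.74, 1.63 and 4.17 TPM. Male WT libraries 2 and 3 were the lowest of all 12, and the male genotypes overlapped. Summed markers of oligodendrocytes, the cells best known for *Klk6*, were at 2382 TPM in male WT 2, the lowest of all libraries, but at 4382 TPM in male WT 3, the fifth highest. The log2 fold change was 1.13 ± 0.46 (SE) in males (limma unadjusted p = 0.0298, adjusted p = 0.880) and 0.13 ± 0.46 in females. It was 0.82 in males without male cKO 3 and 1.71 without male WT 1. Over both sexes it was 0.63 ± 0.36, and 0.41 without male WT 3. It was 1.16 with the CMV-named libraries alone, which leaves out the 3 female WT libraries (limma unadjusted p = 0.0185, adjusted p = 0.903). That fit sets cKO of both labelled sexes against male WT alone, so genotype and sex are mixed in it. *Klk6* averaged 2.53 TPM in female WT and 1.40 TPM in male WT.

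Spinesin, *Tmprss5* (ENSMUSG00000032268, chr9:49081260-49117587), a membrane-bound peptidase first known from spinal cord, was the highest *Tmprss* gene. It was at 2.44, 4.80 and 5.47 TPM in female WT, 3.07, 3.61 and 5.24 TPM in female cKO, 2.48, 2.00 and 2.20 TPM in male WT and 3.26, 2.44 and 3.60 TPM in male cKO. The 3 male WT libraries were among the lowest, and female WT held the highest value. Over both sexes the log2 fold change was 0.20 with an interval of -0.36 to 0.76. It was 0.083 without female cKO 3 and 0.37 without female WT 3. With the CMV-named libraries alone it was 0.61, again without the female WT libraries (limma unadjusted p = 0.0169, adjusted p = 0.873). Genotype and sex are mixed in that fit, and *Tmprss5* averaged 4.23 TPM in female WT and 2.22 TPM in male WT.

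Polyserase-2, *Prss36* (ENSMUSG00000070371, chr7:127932638-127946725), a secreted peptidase with several catalytic domains in tandem, varied least among the members above 1 TPM in cKO (coefficient of variation 6.30%). WT libraries ranged from 10.9 to 14.5 TPM with a median of 11.7, and cKO libraries from 11.9 to 14.5 TPM with a median of 13.5. The genotypes overlapped, and the log2 fold change was 0.16 with an interval of -0.0097 to 0.32 (limma unadjusted p = 0.0629, adjusted p = 0.781). Near it, *Prss53* (ENSMUSG00000044139, chr7:127885841-127890970), polyserase-3, had medians of 2.55 TPM in WT and 2.78 TPM in cKO and a log2 fold change of 0.23 ± 0.15. *Prss53* is uncertain because 75.3% of its 31-base stretches also occur in the gene *Gm21974*.

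*Prss35* (ENSMUSG00000033491, chr9:86743649-86758443), a peptidase homolog without the catalytic serine, was at 2.49 to 5.72 TPM in WT (median 5.01) and 1.52 to 5.15 TPM in cKO (median 4.12). Both low values were from single libraries, male WT 1 and male cKO 1, with the other 10 libraries between 3.65 and 5.72 TPM. The log2 fold change was -0.30 ± 0.28 (SE), and it was -0.061 without male cKO 1 and -0.47 without male WT 1. *Prss16* (ENSMUSG00000006179, chr13:22002173-22009742), a thymus-specific serine peptidase, was at 0.794 to 1.98 TPM in WT and 0.810 to 2.01 TPM in cKO, with a log2 fold change of -0.14 ± 0.25. This was -0.31 without male WT 3 and -0.012 without male cKO 3. Its sign turned with the CMV-named libraries alone, to 0.14. This fit, too, has no female WT, so genotype and sex are mixed in it. *Prss16* averaged 1.84 TPM in female WT and 1.25 TPM in male WT. With all libraries its log2 fold change was -0.24 in females and -0.053 in males.

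*Prss23* (ENSMUSG00000039405, chr7:89507783-89527187), a secreted peptidase, was between 1.90 and 3.46 TPM in the 6 WT libraries and between 2.79 and 4.03 TPM in 5 of the cKO libraries. Male cKO 3 was at 13.5 TPM. In males the log2 fold change was 1.15 ± 0.46 (SE) with that library and 0.46 without it (limma unadjusted p = 0.0283 and 0.0761, adjusted p = 0.880 with it). Over both sexes it was 0.62 with male cKO 3 and 0.28 without it. In males all 3 cKO values (3.05, 3.25 and 13.5 TPM) lay above the 3 WT values (1.90, 2.20 and 2.78 TPM), and in females the groups overlapped. The share of all genes with such a separation of 3 against 3 libraries was not counted, so nothing is read from it.

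No member passed the test in any comparison, where a call is an adjusted p under 0.05 and a fold change over 1.2. In cKO against WT of both sexes 0 of 38 members were called, beside 27 of 18197 genes (0.148%). At an unadjusted p under 0.05, 2 members were higher in cKO (5.26%, against 4.84% of all genes) and 1 was lower (2.63%, against 1.8% of all genes). These shares are near those of all genes. In no member were the 6 cKO values all above or all below the 6 WT values, which happened in 0.572% of all genes upward and 0.104% downward. The median log2 fold change of the 38 members was 0.17, with 24 above 0 and 14 below, and that of all genes was 0.016. Nothing is read from these counts, since the filter favors members that are high in 1 genotype. Of the 38, *Klk14*, *Klk1b5* and *Klk1b8* had WT means under the 0.1 TPM limit and *Prss42* a cKO mean under it, and each was tested only through its values in the other genotype.

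**Figure D2:**
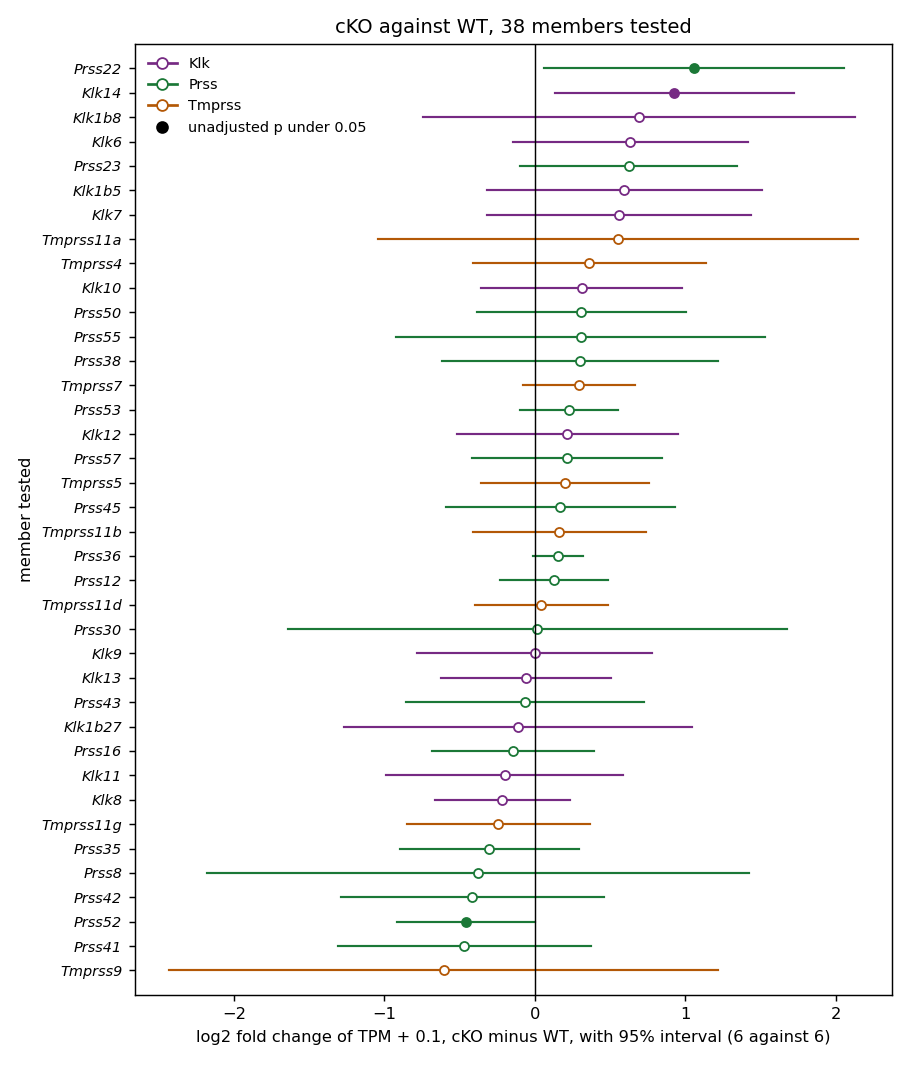
Log2 fold change of TPM + 0.1 in cKO minus WT, with 95% intervals from limma, for the 38 members tested, ordered by size and colored by family (6 libraries against 6). Filled points mark the 3 members with an unadjusted p under 0.05 (*Prss22*, *Klk14* and *Prss52*), and all other intervals cross 0.

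The 3 members at an unadjusted p under 0.05 were all below 1.5 TPM on average, and none passed after adjustment. *Klk14* (ENSMUSG00000044737, chr7:43690418-43695536), a kallikrein of skin that activates other kallikreins, was at 0 to 0.244 TPM in WT (median 0.0632) and 0.101 to 0.372 TPM in cKO (median 0.204). In 5 of 6 WT libraries (0 to 0.0713 TPM) it was below every cKO library, while male WT 3 exceeded 4 of them. The log2 fold change was 0.92 ± 0.37 (SE) with a limma adjusted p of 0.669, and 0.18 when 1 TPM was added before the log2 transform. With a WT mean of 0.0736 TPM it was tested only through its cKO mean of 0.213 TPM, so its p is not support for a difference. *Prss22* (ENSMUSG00000045027, chr17:23993534-23998100), an airway tryptase, was at 0 to 0.445 TPM in WT (median 0.152) and 0.124 to 0.858 TPM in cKO (median 0.474). Its 3 highest cKO libraries lay above every WT library and the other 3 within the WT range. Its log2 fold change was 1.06 ± 0.46 (limma adjusted p = 0.714), and 0.32 when 1 TPM in place of 0.1 was added before the log2 transform. *Prss52* (ENSMUSG00000021966, chr14:64104286-64113755), from a group of testis peptidases on chromosome 14, was at 0.967 to 2.37 TPM in WT (median 1.34) and 0.715 to 1.22 TPM in cKO (median 0.983). Its log2 fold change was -0.46 ± 0.21 (limma adjusted p = 0.749). With each library left out in turn, the unadjusted p stayed under 0.05 in 8 of 12 fits for *Klk14*, 5 for *Prss22* and 3 for *Prss52*.

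Within a sex the counts were as low. In female cKO against female WT 0 of 38 members were called, beside 3 genes of all tested (0.0165%), and at an unadjusted p under 0.05 1 member was higher and 0 were lower, against 3.91% and 1.88% of all genes. That member was *Prss22*, at 0, 0.204 and 0.133 TPM in female WT and 0.858, 0.754 and 0.223 TPM in female cKO. All 3 female cKO values lay above the female WT values, the lowest of them in female cKO 3, the library with the Y-linked transcripts. Nothing is read from this separation, since its share over all genes was not counted for groups of 3. The female log2 fold change of *Prss22* was 1.74 ± 0.65 (SE, limma unadjusted p = 0.0207, adjusted p = 0.842), and 2.24 without both libraries of conflicting sex.

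In male cKO against male WT 0 of 38 members were called, also beside 3 genes (0.0165%), and 2 members were higher and 0 lower at an unadjusted p under 0.05, against 3.68% and 1.78% of all genes. The 2 were *Klk6* and *Prss23*, described above. Without both libraries of conflicting sex the male log2 fold change was 1.11 for *Klk6* (limma unadjusted p = 0.0734) and 1.47 for *Prss23* (limma unadjusted p = 0.0156, adjusted p = 0.534). Median log2 fold changes of the 38 members were 0.10 in females and 0.25 in males, beside 0.015 and 0.020 over all genes. Without both libraries of conflicting sex 39 members were tested, with medians of 0.076 and 0.23. With the sexes of these 2 libraries exchanged, the 38 members had medians of -0.0017 in females and 0.18 in males.

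The difference between the sexes was tested as an interaction. With the labelled sexes it called 0 of 38 members and 0 of 18197 genes (0%). At an unadjusted p under 0.05 it held 0 members in either direction. Of all genes, 2.16% had a more positive change in females than in males at that level, and 2.07% a more negative one. With the sexes of the 2 conflicting libraries exchanged, it called 3 genes and 0 members. *Klk13* then had a more negative change in females at an unadjusted p under 0.05 (limma adjusted p = 0.751). The member nearest the threshold with the labelled sexes, *Prss57* (neutrophil serine protease), was chosen after its values were seen. It was at 0.824, 0.880 and 1.53 TPM in female WT and 1.05, 0.888 and 0.601 TPM in female cKO, and at 0.545, 0.946 and 0.369 TPM in male WT and 1.00, 0.741 and 1.44 TPM in male cKO. The groups overlapped in both sexes, and its interaction was -1.02 ± 0.54 on the log2 scale (limma unadjusted p = 0.0837, adjusted p = 0.966). Interaction intervals were wide for most members, for *Klk8* from -1.28 to 0.66 and for *Klk6* from -2.42 to 0.41. Differences between the sexes inside these intervals are compatible with the data, so their absence is not shown.

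**Figure D3:**
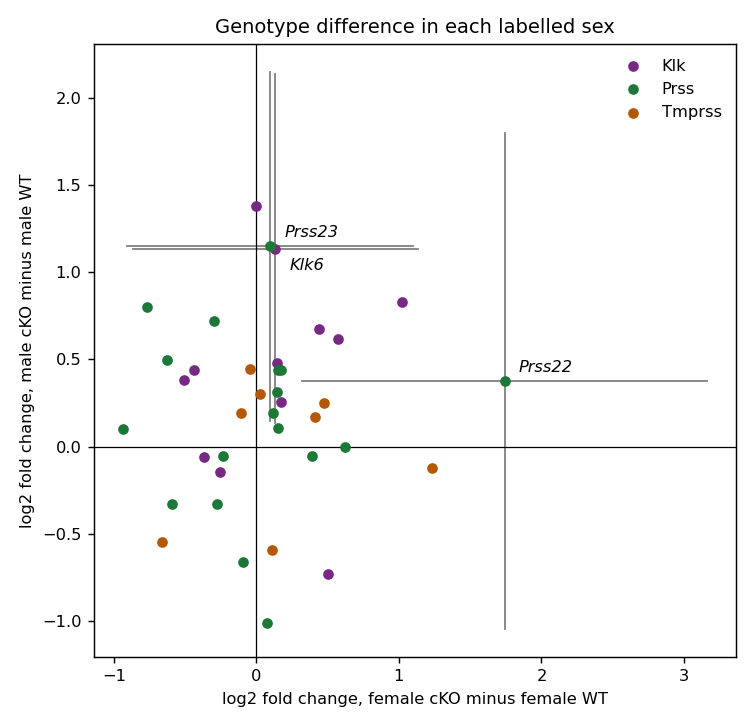
Log2 fold change of cKO against WT in the labelled females (x axis) and males (y axis) for the 38 members tested, colored by family. Grey lines are 95% intervals for *Prss22*, *Klk6* and *Prss23*, the 3 members with an unadjusted p under 0.05 in a sex, and each interval crosses 0 in the other sex.

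The 21 *Klk* members lie side by side on chromosome 7 (chr7:43690418-44229618, 539 kb), and their levels split along that row. The 10 members outside the *Klk1* group held nearly all of the signal, with *Klk8*, *Klk6*, *Klk10* and *Klk9* above 1 TPM. *Klk10* (ENSMUSG00000030693, chr7:43781035-43785410), a kallikrein of epithelia, was at 0.793 to 2.29 TPM in WT (median 1.28) and 0.844 to 3.00 TPM in cKO (median 1.66), with a log2 fold change of 0.31 ± 0.31. It was 0.14 without female cKO 3 and 0.48 without female cKO 1. *Klk9*, chosen after its values were seen, was at 0.781 to 2.11 TPM in WT and 0.600 to 3.22 TPM in cKO. The skin kallikrein *Klk7* was at 0.115 to 0.674 TPM in WT and 0.225 to 1.69 TPM in cKO. *Klk11*, *Klk12* and *Klk13* had means of 0.438, 0.550 and 0.757 TPM and log2 fold changes between -0.20 and 0.22, and *Klk5* was not tested at a mean of 0.0551 TPM.

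**Figure D4:**
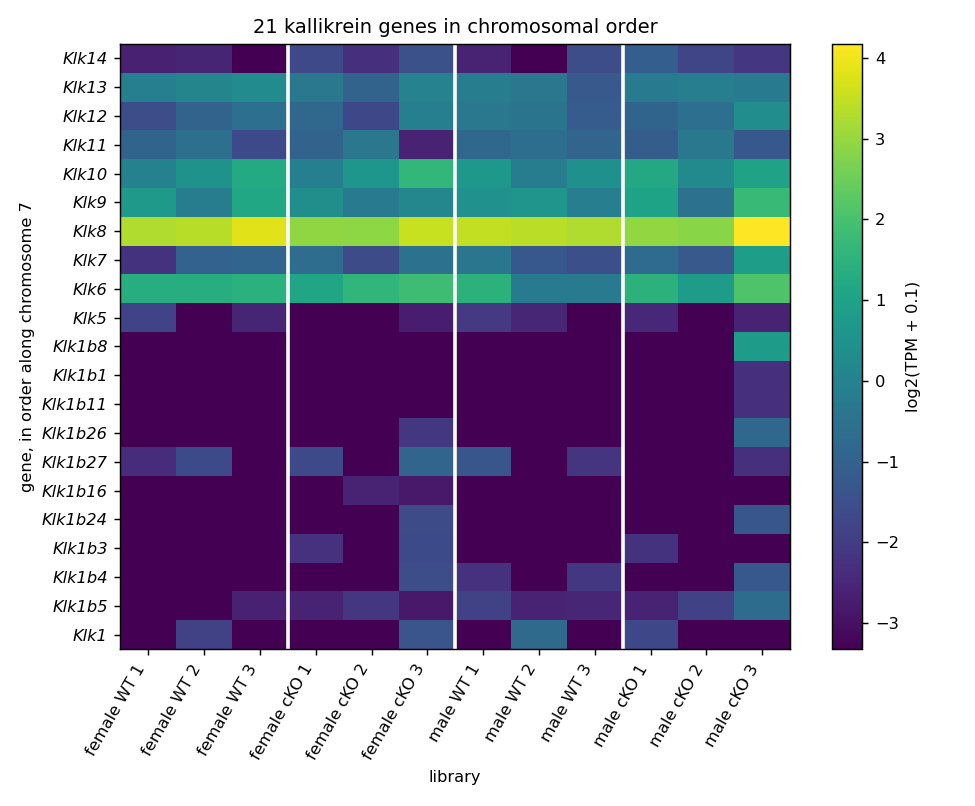
Log2(TPM + 0.1) of the 21 *Klk* members (rows, in order along chromosome 7) in the 12 libraries (columns, white lines between groups). *Klk8* is the brightest row in every library, and most *Klk1b* rows are dark outside female cKO 3 and male cKO 3.

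The *Klk1* and *Klk1b* genes, the glandular kallikreins, had 11 members, all at means of 0.139 TPM or lower. In 10 libraries 1 to 3 of the 11 were above 0 and they summed to between 0.0626 and 0.593 TPM. In female cKO 3 and male cKO 3, 8 of the 11 were above 0, and they summed to 1.65 and 3.59 TPM. *Klk1b8* was at 1.67 TPM in male cKO 3 and listed at 0 in the other 11 libraries, and this library had the highest value of 7 of the 11. These genes resemble each other closely, with 10 of the 11 sharing over 20% of their 31-base stretches with other genes (median 39.4%), so how reads were split among them is uncertain. Their 3 tested members (*Klk1b5*, *Klk1b8* and *Klk1b27*) passed no test. Both libraries are cKO and both had high *Eif2s3y*, although female cKO 3 is labelled female. Male cKO 2, also cKO with high *Eif2s3y* (79.5 TPM), did not share the pattern, with 1 of the 11 above 0 and a sum of 0.175 TPM. The pattern was chosen after its values were seen.

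Male cKO 3 stood apart for the families as for other genes. Its members summed to 103 TPM, against 58.7 to 75.2 TPM in the other 11 libraries, and its *Klk* members to 35.0 TPM, against 13.1 to 23.7 TPM. It had the highest value for 9 of the 38 members tested (23.7%, against 19.5% of all genes tested). The 8 astrocyte markers summed to 819 to 926 TPM in WT and 807 to 1846 TPM in cKO, and *Prss23* was highest in the 2 libraries with the highest astrocyte sums, male cKO 3 and female cKO 3 (1084 TPM of markers, 4.03 TPM of *Prss23*). In the other 10 libraries astrocyte sums of 807 to 926 TPM went with *Prss23* levels of 1.90 to 3.46 TPM. The part of astrocytes in this was not tested. Without male cKO 3 the median log2 fold change was 0.048 over the 37 members then tested, in place of 0.17 over the 38.

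**Figure D5:**
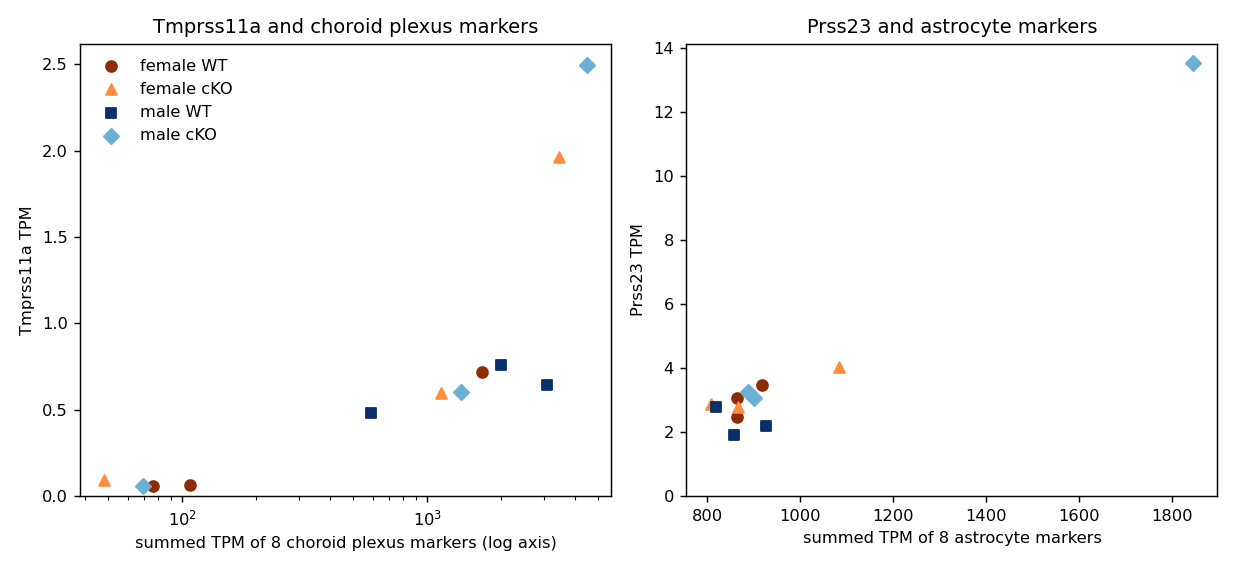
Left, *Tmprss11a* TPM against the summed TPM of 8 choroid plexus markers (log axis), and right, *Prss23* TPM against the summed TPM of 8 astrocyte markers. Each point is 1 of the 12 libraries, with color and shape for the 4 groups. *Tmprss11a* is under 0.1 TPM in the 4 libraries with the lowest choroid plexus sums, and *Prss23* is at 13.5 TPM in the 1 library with an astrocyte sum of 1846 TPM.

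Of the *Tmprss* genes 8 were tested and 0 had an unadjusted p under 0.05 in any comparison with all 12 libraries. *Tmprss5* did with the CMV-named libraries alone, and *Tmprss11g* was lower in males at that level without both libraries of conflicting sex. *Tmprss7* (matriptase-3) was at 0.654 to 1.18 TPM in WT (median 1.05) and 0.984 to 1.43 TPM in cKO (median 1.28), with a log2 fold change of 0.29 ± 0.17. *Tmprss11d*, an airway peptidase, had means of 0.985 TPM in WT and 0.987 TPM in cKO, with a log2 fold change of 0.042 and an interval of -0.40 to 0.48. In both genes the genotypes overlapped.

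*Tmprss11a*, an epithelial peptidase chosen after its values were seen, differed widely within each genotype. It was at 0.717, 0.0629 and 0.0614 TPM in female WT, 0.0940, 1.96 and 0.595 TPM in female cKO, 0.759, 0.478 and 0.645 TPM in male WT, and 2.495, 0.0571 and 0.600 TPM in male cKO. High and low values occurred in both genotypes. The 8 choroid plexus markers are genes of a tissue that projects into the ventricle beside the hippocampus. They summed to 76.3 to 3074 TPM in WT and 48.2 to 4498 TPM in cKO. The 4 libraries with the lowest choroid plexus marker sums (48.2 to 107 TPM) had *Tmprss11a* at 0.0571 to 0.0940 TPM, and the 2 with the highest sums (3468 and 4498 TPM) had 1.96 and 2.495 TPM. Between them the order did not hold. Male WT 3, next with a sum of 3074 TPM, had 0.645 TPM, below the 0.717 TPM of female WT 1 at a sum of 1672 TPM. The part of choroid plexus tissue in this was not tested. Between the genotypes the log2 fold change was 0.55 with an interval of -1.04 to 2.15. *Tmprss9* and *Prss8* (prostasin, which activates epithelial sodium channels) went between 0 and 1.18 TPM and between 0 and 1.01 TPM within a genotype. *Tmprss4*, *Tmprss11b* and *Tmprss11g* had log2 fold changes of 0.36, 0.16 and -0.24, with intervals across 0. The other 8 *Tmprss* members, *Tmprss2*, *Tmprss3*, *Tmprss6*, *Tmprss11e*, *Tmprss11f*, *Tmprss12*, *Tmprss13* and *Tmprss15*, were not tested.

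The remaining *Prss* genes are mostly known from testis, gut or blood cells. Of the testis group on chromosome 9, *Prss50*, *Prss45*, *Prss43* and *Prss42* were tested, with log2 fold changes of 0.31, 0.17, -0.067 and -0.42 and all intervals across 0, and *Prss44* and *Prss46* were too low. *Prss55*, near *Prss52* on chromosome 14, varied widely within a genotype, at 0.185 to 2.68 TPM in WT and 0.253 to 2.44 TPM in cKO. Its high values were in male WT 1 and female cKO 1. *Prss30*, *Prss38* and *Prss41* had log2 fold changes of 0.017, 0.30 and -0.47, also with intervals across 0. *Prss48*, which was not tested and was chosen after its values were seen, was listed at 0 in 5 of 6 cKO libraries and at 0.0685 TPM in the sixth, and at 0 to 0.345 TPM in WT libraries with 5 of 6 above 0. With no filter on low values it had an unadjusted p under 0.05. At such levels 1 or a few reads can set a value. *Prss2*, *Prss27*, *Prss33*, *Prss34*, *Prss37*, *Prss40*, *Prss51*, *Prss54* and *Prss56* were also too low to be tested, and *Prss1* counted as a member on values of at most 1.65e-06 TPM.

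Sequence that members share with other genes limits some values. Of the 68 members, 36 shared no 31-base stretch of their annotated transcripts with another gene, among them *Klk8*, *Klk6*, *Klk10*, *Prss36*, *Prss23*, *Prss16*, *Prss52* and *Tmprss5*. *Prss12* shared 0.156% and *Prss35* 5.47%. Besides the *Klk1* group, *Prss53*, *Prss1* (69.3%) and *Prss2* (22.5%) shared over 20%, the latter pair most with *Gm5771* and *Try4*.

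Partners of these peptidases were read from lists of genes. Of 37 other peptidases of the same clan 21 were tested and 0 were called. At an unadjusted p under 0.05 4 were higher and 0 lower in cKO, beside 4.84% and 1.8% of all genes. These were *Hpn* (hepsin, a transmembrane peptidase) at 7.77 ± 2.33 TPM in cKO and 4.74 ± 1.49 TPM in WT, with a log2 fold change of 0.72 (limma adjusted p = 0.486), *Htra3* with 0.42, *Ctrl* (chymotrypsin-like) with 0.59 and *Acr* (acrosin) with 1.41. *Acr* was listed at 0 in 1 WT library, male WT 2, and its log2 fold change was 0.90 without it. None of the 4 passed after adjustment. The median log2 fold change over the 21 was 0.17, beside 0.016 over all genes.

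In females 3 of the 21 were higher and 0 lower at an unadjusted p under 0.05, beside 3.91% and 1.88% of all genes. These were *Plau* (urokinase), *Htra3* and *Htra4*. Their female log2 fold changes were 0.63, 0.41 and 0.65. *Htra4* was at 3.99, 2.46 and 6.34 TPM in female cKO and 2.10, 2.77 and 2.68 TPM in female WT, with its highest value in female cKO 3. Without both libraries of conflicting sex the female log2 fold change of *Htra4* was 0.32 (limma unadjusted p = 0.224), and it was 0.98 without female cKO 2. In males *Htra3*, *Ctrl* and *Acr* were higher and the mast cell chymase *Cma1* lower at that level. Of all genes 3.68% were higher and 1.78% lower. Without both libraries of conflicting sex *Acr* and *Cma1* no longer had an unadjusted p under 0.05 (limma unadjusted p = 0.122 and 0.121), with male log2 fold changes of 1.56 and -1.09 in place of 1.73 and -1.37. Without male WT 2 that of *Acr* was 0.62. *Plau*, an activator of plasminogen, was also in the interaction, with a log2 difference of 0.63 ± 0.20 in females (0.41 without female cKO 1) and an interaction of 0.82 ± 0.29 (limma unadjusted p = 0.0147, adjusted p = 0.966). It was at 1.57, 1.58 and 1.72 TPM in female WT and 3.52, 2.31 and 2.08 TPM in female cKO. In males it was at 2.54, 2.37 and 2.504 TPM in WT and 2.16, 2.35 and 1.96 TPM in cKO. Every female cKO library was thus above the female WT libraries, and every male cKO library below the male WT libraries. The share of all genes with such a separation was not counted, and *Plau* was named from these same values. Nothing is therefore read from it. The interaction held 2 of the 21, *Plau* and *Htra4*, at an unadjusted p under 0.05. Both were more positive in females, beside 2.16% of all genes. *Htra4* had an interaction of 0.96 ± 0.41, which did not pass (limma adjusted p = 0.966). It was 0.63 without female cKO 3, 0.77 without both libraries of conflicting sex, and 0.40 with the 2 libraries' sexes exchanged, all at an unadjusted p above 0.05.

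All 4 protease-activated receptors, which serine peptidases switch on by cutting them, were tested and 0 were called, beside 0.148% of all genes. The thrombin receptor *F2r* had a male log2 fold change of 0.64 ± 0.26 (limma adjusted p = 0.880), and 0.33 without male cKO 3. The 4 receptors had a median log2 fold change of 0.35 over both sexes. Of 22 inhibitors 18 were tested and 0 called, and at an unadjusted p under 0.05 2 were higher and 0 lower in cKO, beside 4.84% and 1.8% of all genes. These were *Spink10*, a Kazal-type inhibitor, at 12.7 ± 2.70 TPM in cKO and 8.47 ± 2.83 TPM in WT (log2 fold change 0.62, limma adjusted p = 0.558), and *Slpi*, the secretory leukocyte peptidase inhibitor, at 1.45 ± 0.636 and 0.817 ± 0.268 TPM (log2 fold change 0.69, limma adjusted p = 0.746). The median log2 fold change of the 18 was 0.24. Of 12 known substrates, among them agrin, *Mbp* and *L1cam*, all were tested and 0 called, and only the sodium channel subunit *Scnn1g* in females had an unadjusted p under 0.05, beside 3.91% of all genes higher in females, with a log2 fold change of 1.23 ± 0.43 (limma adjusted p = 0.804). This was 0.30 with 1 TPM added before the log2 transform. Over both sexes the 12 had a median of -0.048.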

How the data were processed

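Poly-A selected, stranded RNA-seq libraries of 12 hippocampi were analysed in 4 groups of 3 by label. The authors deposited 1 table of TPM, in which values are divided by transcript length and scaled per library. The submitters' processing notes name kallisto and mm10, while the methods name STAR, Salmon and tximport, and which of them wrote the table is not given in the sources used here. Deposited columns summed to 825750 to 845553 TPM over the listed genes. TPM keeps no read counts, so the depth behind each value is unknown and the study's DESeq2 test on counts was not repeated. TPM also depends on how reads shared by similar genes are split.

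Ensembl IDs of 25262 of the 26409 rows were found in GENCODE M21. The 18197 genes whose mean reached 0.1 TPM were tested on log2(TPM + 0.1) with limma 3.58.1 in R 4.3.3 (trended prior variance, two-sided, Benjamini-Hochberg adjustment over all of them), as 6 cKO against 6 WT libraries, and as contrasts of a 4 group fit for each sex and the interaction. Adding 0.1 TPM understates the change of low genes. A call needed an adjusted p under 0.05 and a fold change over 1.2. No 2 libraries held the same values.

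The members, lists and tests were chosen with earlier results of these data known. Members named in the text are those with an unadjusted p under 0.05 in any comparison, those whose genotypes do not overlap, the 10 highest by mean TPM, and Klk6, Klk8, Prss12 and Tmprss5. Others were chosen after their values were seen or are named to account for all members. Genes of the lists (other S1 peptidases, protease-activated receptors, inhibitors, substrates) are named at an unadjusted p under 0.05. The lists of cell type markers covered hippocampal neurons, oligodendrocytes, astrocytes, microglia, endothelium, choroid plexus, meninges, blood and mast cells, thalamus and habenula, and squamous epithelium. Promoter windows are from RefSeq on GRCm38.p6, found for 53 of 68 members, and motifs and shared 31-base stretches of GENCODE M21 transcripts were searched after the values were seen. The scripts were tested on simulated data. Tables were made with Python 3.11.15, pandas 2.3.3 and numpy 2.4.6.

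Each alternative altered a single choice. These were the amount added before the log2 transform (0.5 or 1 TPM), the filter (none, or a mean of 1 TPM), the scaling (median ratio or quantile), the prior variance (no trend), the model (sex covariate, replicate block, or only the 6 libraries of 1 sex) and the libraries (CMV-named alone, sexes as in the study's library overview, without both libraries of conflicting sex, or without each library in turn).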

Additional observations from a re-analysis of the deposited data

Results flagged for a closer look

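Single libraries stood far from the other 5 of their genotype, by Dixon's criterion, in 9 cases among the genes followed. Chance flags about 1 in 20 such groups, and 60 groups of values were looked at. *Klk8* in WT was at 14.1 TPM in female WT 3, where the other WT libraries were at 9.62 to 11.1 TPM. *Prss23* in cKO was at 13.5 TPM in male cKO 3, against 2.79 to 4.03 TPM. *Prss35* was low in 1 library of each genotype, at 1.52 TPM in male cKO 1 against 3.65 to 5.15 TPM, and at 2.49 TPM in male WT 1 against 4.45 to 5.72 TPM. *Prss16* in WT was at 0.794 TPM in male WT 3, against 1.48 to 1.98 TPM. *Klk1b8* was at 1.67 TPM in male cKO 3 and *Prss48* at 0.0685 TPM in female cKO 3, each listed at 0 in the other 5 cKO libraries. With the other 5 values at 0, any value above 0 is flagged. Among list genes, *Acr* in WT was listed at 0 in male WT 2, against 0.602 to 0.923 TPM, and *Plau* in cKO was at 3.52 TPM in female cKO 1, against 1.96 to 2.35 TPM.

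*Plau* also differed between the labelled sexes, with an interaction of 0.82 on the log2 scale that did not pass after adjustment (limma adjusted p = 0.966). Its lowest values were in the 3 C57-named female WT libraries, so genotype and library name cannot be told apart in this interaction. Without both libraries of conflicting sex it was 0.97.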

How the results depend on the processing

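Under 94 fits in all, 0 members were called in any comparison, and the lowest adjusted p of a member was 0.351 (*Prss22* in females without female cKO 3). For cKO against WT, the number of members higher at an unadjusted p under 0.05 was 2, and became 0 with a filter of 1 TPM, 5 with no filter, 1 with quantile normalization and 1 with a replicate block. The number lower was 1, and became 0 with the CMV-named libraries alone, with a filter of 1 TPM and with sex as a covariate, and 2 with a replicate block. Leaving out 1 library at a time gave 0 to 2 higher and 0 to 1 lower. The members' median log2 fold change of 0.17 became 0.23 with the CMV-named libraries alone and 0.066 with 1 TPM added. With 1 library left out it ranged from 0.048 (without male cKO 3) to 0.19 (without female WT 2). Each median is over the members that passed the filter in that fit. The 13 members named by rule and the 11 list genes named kept their direction in the alternatives run, except *Prss16*. It was at 0.14 with the CMV-named libraries alone, a fit without female WT. The count over all genes was 27, and 8 with the CMV-named libraries alone, 17 with no filter, 3 with the replicate block, 36 with no trend in the prior variance, 32 with 0.5 or 1 TPM added and 13 to 27 with 1 library left out.

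The replicate numbers do not pair the samples, since deviations of same-numbered WT and cKO libraries correlated between -0.038 and 0.045. The block put *Prss35* at an unadjusted p of 0.0242 and took *Klk14* out. Causes of these changes were not tested. The read depth behind low TPM values, which limits most members, is unknown.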
